A study of Homo sapiens with 12 samples.

Results

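The genes described here encode alpha-2-macroglobulin (A2M) and 8 other secreted proteins that inhibit proteases or belong to the same families: AHSG, AMBP, ITIH1, ITIH2, ITIH3, ITIH4, SERPINA6 and SPINK1. They are 9 of the 18417 genes that had a probe set of their own on the array. Each gene had exactly 1 such probe set, so the rule of taking the brightest probe set left nothing to choose. The genes were chosen by their measured log2 values in these same 12 arrays, as earlier results gave them. The high A2M in the TLR4-D299G line and the differences of ITIH2 of TLR4-WT from untransfected cells and from TLR4-D299G were in view by name. These are given below as values with no test. They are left out of the counts of calls, except where the closing section says that they are included. The other A2M differences, and that of ITIH2 between TLR4-D299G and untransfected cells, follow from these by subtraction. They are also given with no test, and where they stand in counts or figures as called they are descriptions.

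The samples came from Caco-2, an established line from a human colon tumour that serves as a model of gut epithelium. They formed 4 groups of 3 RNA samples with 1 array each. The groups were cells stably transfected with HA-tagged wild-type TLR4 (TLR4-WT), the mutant TLR4-D299G or the mutant TLR4-T399I, and untransfected cells, which were given no plasmid. There was no line with an empty vector. Transfected cells took 1 µg of plasmid per well and were selected as clones with 1 µg/ml blasticidin. All groups were cultured for 8 days, and the lines share the drug selection and cloning that untransfected cells lack. How many clones stand behind a line, and whether the 3 samples of a group were separate cultures, is not given in the sources used here, so the p-values rest on a spread that may be technical. A difference between lines therefore cannot be told apart from a difference between clones. The values are log2 expression, in which 1 unit is a doubling, and a gene was called in a comparison at a limma p-value under 0.05 after Benjamini-Hochberg adjustment over all 33297 probe sets.

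TLR4 itself was at 4.83 ± 0.27 (SD, n = 3) in untransfected cells and at 8.61 ± 0.11, 8.81 ± 0.08 and 8.34 ± 0.05 in the TLR4-WT, TLR4-D299G and TLR4-T399I lines, as labelled. Of 8 intestinal epithelial markers, none lay under the arrays' lower quartile (5.2 to 5.29) in any group, and keratin 8 was the highest, with group means of 13.11 to 13.69. In TLR4-D299G, CDX2 (log2 change -0.85), VIL1 (-0.42), KRT20 (-0.32) and CDH1 (-0.31) were called lower than in untransfected cells. KRT8 (0.58) and KRT18 (0.65) were called higher there, and EPCAM (-0.04) and LGALS4 (0.09) did not pass. The summed log2 level of the 8 ran from 86.48 to 86.85 in untransfected cells, 87.33 to 87.44 in TLR4-WT, 85.89 to 86.18 in TLR4-D299G and 87.55 to 87.82 in TLR4-T399I. Fibroblast markers had 2 to 3 of 8 under that bound, with sums of 47.84 to 48.02, 48.75 to 49.26, 51.45 to 51.73 and 49.49 to 50.3 in the same order. Most of the rise in TLR4-D299G came from PDGFRA, whose log2 change was 2.09. COL3A1 (0.68) and COL1A2 (0.28) were also called higher, while LUM (0.49), FAP (0.18), DCN (0.14), COL1A1 (-0.09) and PDGFRB (-0.1) did not pass. Endothelial markers had 2 of 7 under it, with sums of 38.75 to 39.25, 39.28 to 40.3, 40.22 to 40.6 and 38.24 to 39.81. Leukocyte markers (6 of 7 measured) had 1 to 2 under it, with sums of 40.01 to 40.25, 42.78 to 43.3, 43.75 to 44.09 and 40.82 to 41.2. Nearly all of the rise in TLR4-D299G came from LYZ (log2 change 3.44). ITGAM (0.48) and CSF1R (0.46) were also called higher, CD68 fell (-0.51), and PTPRC (-0.22) and CD3E (0.15) did not pass. The part of these markers in the results below was not tested.

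Plasma protease inhibitors keep coagulation, complement, inflammation and digestive enzymes in check. A2M is a large trap: a protease cuts its bait region, the molecule closes around it, and the complex is cleared through the receptor LRP1. Serpins are suicide substrates, although SERPINA6 has become a carrier of cortisol. AMBP is a precursor split into alpha-1-microglobulin and bikunin, and bikunin is linked through chondroitin sulfate to heavy chains encoded by ITIH1, ITIH2 and ITIH3, which stabilise hyaluronan matrices. Most of these proteins come from the liver, while SPINK1, the pancreatic trypsin inhibitor, is also made in the gut. Caco-2 cells are known to express many hepatocyte secretory genes.

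Apart from A2M and ITIH2, a difference among the 4 groups was called for 3 of 7 genes (AHSG, AMBP and SERPINA6) by limma's moderated F test, beside 41.9% of all probe sets. ITIH1, ITIH3, ITIH4 and SPINK1 did not pass (adjusted p = 0.499, 0.0683, 0.224 and 0.0553). Against untransfected cells, 0 of the 8 genes tested were higher and 3 lower (AHSG, AMBP and SERPINA6) in TLR4-WT, beside 16.1% and 15.1% of all probe sets, or 31.2% in either direction. In TLR4-D299G 1 of 8 was higher (ITIH2) and 1 lower (AMBP), beside 17.5% and 17.9% (35.4% in either direction). In TLR4-T399I 0 of 9 were higher and 6 lower, all but ITIH1, ITIH3 and ITIH4, beside 14.6% and 14.8% (29.5% in either direction). Since the genes were chosen on these arrays, nothing is read from these shares. The ITIH2 value in TLR4-D299G and the A2M values in TLR4-WT and TLR4-T399I follow from differences known beforehand, so these add no test. With each array centred on its median, 39.5% rather than 51.6% of all calls in TLR4-WT were higher, while the same number of the genes described here was called. These 3 comparisons share the untransfected arrays, so their values are not independent of each other. Since RNA came from whole cultures, fewer cells that express a gene and less of its RNA per cell cannot be told apart.

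Between the lines, 3 of the 7 genes tested (AHSG, AMBP and SERPINA6) were higher and 0 lower in TLR4-D299G than in TLR4-WT, beside 7.85% of all probe sets higher and 9.02% lower (16.9% in either direction). Against TLR4-T399I, 4 of 8 (AHSG, AMBP, ITIH2 and SERPINA6) were higher in TLR4-D299G and 0 lower, beside 5.81% higher and 7.64% lower (13.4%). TLR4-T399I had 0 of 9 higher and 3 lower (A2M, AHSG and SERPINA6) against TLR4-WT, beside 5.9% and 4.48% (10.4%). The A2M value there follows from differences known beforehand and adds no test. With arrays centred on their median, 69.2% rather than 56.8% of all calls between TLR4-T399I and TLR4-WT were higher. Genes with a single symbol were called more often than all probe sets, at 38.3%, 43.3% and 36.6% against untransfected cells for TLR4-WT, TLR4-D299G and TLR4-T399I. Between the lines these shares were 23.1% for TLR4-D299G and 14.4% for TLR4-T399I against TLR4-WT, and 19.1% for TLR4-D299G against TLR4-T399I. Against untransfected cells, the median change of the 9 genes was -0.23 in TLR4-WT, 0.06 in TLR4-D299G and -1.16 in TLR4-T399I, where the median over all probe sets was 0.05, 0.03 and 0.03. These medians include the values without a test, and the genes were chosen on these arrays, so nothing is read from them. The counts of related genes given further on are descriptions to be set beside the shares called above.

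**Figure D1:**
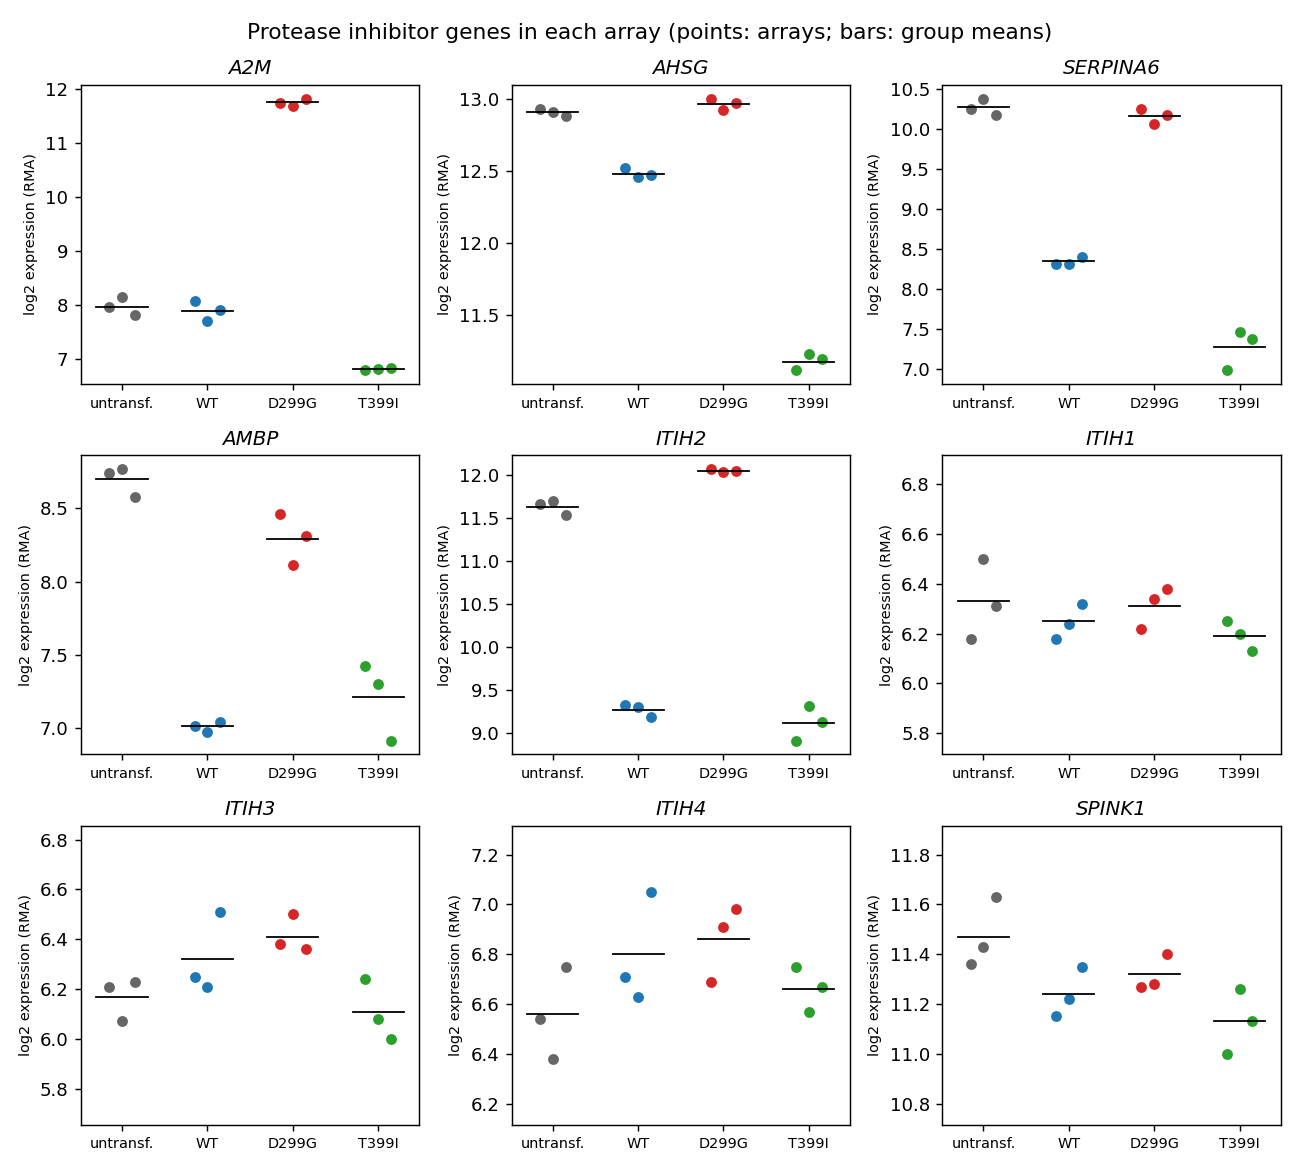
Log2 expression (vertical axis) of each of the 9 genes in each of the 12 arrays; points are arrays, short bars are the means of 3 arrays, and each panel has its own scale of at least 1.2 units. TLR4-D299G arrays of A2M sit between 11.69 and 11.83, above every other array, while TLR4-WT and TLR4-T399I are low for AMBP, ITIH2 and SERPINA6.

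A2M was high in TLR4-D299G alone and lowest in TLR4-T399I. In untransfected cells its arrays read 7.96, 8.14 and 7.81, and in TLR4-WT 8.07, 7.7 and 7.91. In TLR4-D299G they read 11.75, 11.69 and 11.83, and in TLR4-T399I 6.79, 6.81 and 6.84. Untransfected and TLR4-WT arrays overlapped, while TLR4-D299G lay above and TLR4-T399I below all others without overlap. As a description, A2M in TLR4-D299G stood 13.8-fold above untransfected cells, 14.6-fold above TLR4-WT and 30.8-fold above TLR4-T399I. In TLR4-T399I A2M stood 2.23-fold below untransfected cells (log2 change -1.16, SE 0.10) and 2.11-fold below TLR4-WT (log2 change -1.08, SE 0.10). Between TLR4-WT and untransfected cells the log2 change was -0.08 (SE 0.10). These values follow from the differences known beforehand and carry no test.

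The genes next to A2M on chromosome 12 showed no rise like it in TLR4-D299G. PZP, the pregnancy zone protein and closest relative of A2M, is its next measured gene in the RefSeq order. It was at 5.92 ± 0.19 (SD, n = 3) in untransfected cells and 5.51 ± 0.05 in TLR4-D299G, a fall of 1.33-fold (adjusted p = 0.00911). LINC00612, the next measured gene on the other side, was at 3.96 ± 0.19 and 4.12 ± 0.08, under the arrays' lower quartile, and did not pass (adjusted p = 0.25). Among the 3 measured genes on each side, 0 were higher and 2 lower in TLR4-D299G, and the largest change in either direction was the 0.42 units of PZP.

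Other members of the macroglobulin family and the receptor gave a mixed picture. Of 8 genes on this list, 4 were higher and 3 lower in TLR4-D299G against untransfected cells, 1 and 3 in TLR4-WT, and 1 and 5 in TLR4-T399I. The median changes were 0.19, -0.14 and -0.54. The complement component C5, which has the same fold, was at 8.00 ± 0.14 in untransfected cells, 5.95 ± 0.17 in TLR4-WT, 8.91 ± 0.05 in TLR4-D299G and 6.74 ± 0.33 in TLR4-T399I. C5 was 1.87-fold higher in TLR4-D299G (adjusted p = 0.000703) and 4.14-fold lower in TLR4-WT (adjusted p = 2.79e-06) than in untransfected cells. C3, the central complement component, had the same order of directions, with log2 changes of 0.40 in TLR4-D299G (adjusted p = 0.0137) and -1.33 in TLR4-WT (adjusted p = 5.92e-06). CD109, a membrane-bound relative, fell in every line, from 6.69 ± 0.16 to 4.53 ± 0.07, 5.64 ± 0.05 and 4.45 ± 0.17 in TLR4-WT, TLR4-D299G and TLR4-T399I. Its levels in TLR4-WT and TLR4-T399I lay under the arrays' lower quartile, where the background is not known, so those falls may be larger than measured.

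The genes whose values ran most like A2M over the 12 arrays were PRNP (Pearson r = 0.9911), MMD (0.9894), AGXT2 (0.9868), SLC2A2 (0.9851) and UPK1B (0.9819). These correlations mostly reflect the 4 group means and carry no test. The prion protein gene PRNP was at 11.24 ± 0.05 in TLR4-D299G against 9.69 to 10.12 as group means elsewhere. The glucose transporter SLC2A2 was at 9.91 ± 0.15 in TLR4-D299G, 8.07 ± 0.06 in untransfected cells, 8.05 ± 0.20 in TLR4-WT and 7.38 ± 0.26 in TLR4-T399I, the same order of group means as A2M.

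**Figure D2:**
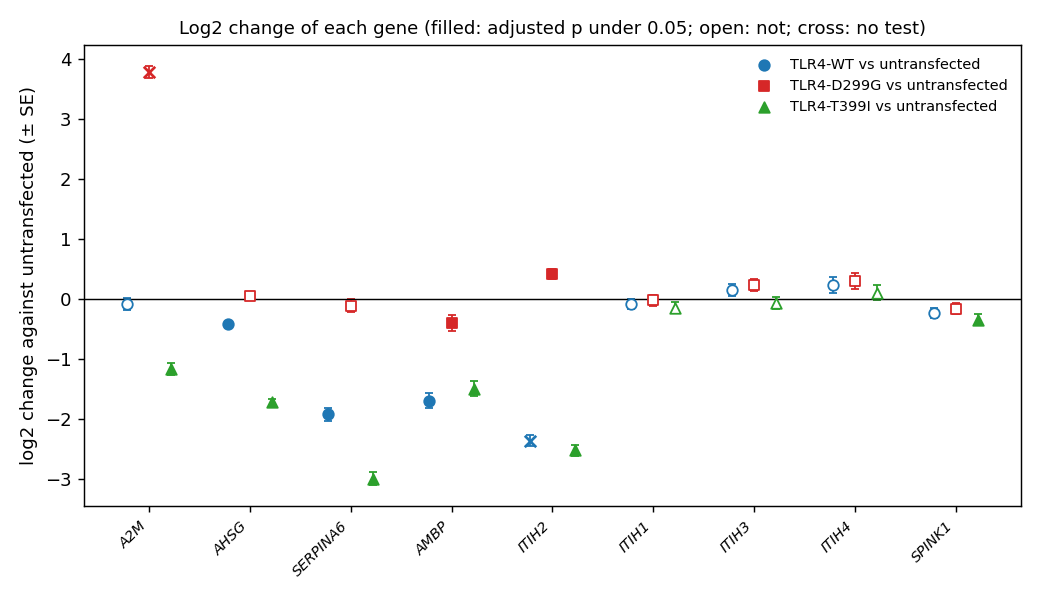
Log2 change against untransfected cells (vertical axis, ± SE of the fit) of the 9 genes in TLR4-WT (circles), TLR4-D299G (squares) and TLR4-T399I (triangles); filled symbols had an adjusted p under 0.05, and crosses carry no test. A2M stands at 3.79 in TLR4-D299G, while ITIH1, ITIH3 and ITIH4 have open symbols in all lines. The A2M circle and triangle and the ITIH2 square follow from values known beforehand.

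SERPINA6, the serpin that carries cortisol in blood, fell in TLR4-WT and further in TLR4-T399I. Its arrays read 10.25, 10.38 and 10.17 in untransfected cells and 10.25, 10.06 and 10.17 in TLR4-D299G. They read 8.32, 8.32 and 8.4 in TLR4-WT and 6.99, 7.47 and 7.38 in TLR4-T399I. Untransfected and TLR4-D299G arrays overlapped and the other 2 groups lay below them, apart from each other. The fall was 3.78-fold in TLR4-WT (log2 change -1.92, SE 0.11, adjusted p = 8.23e-07) and 7.93-fold in TLR4-T399I (log2 change -2.99, SE 0.11, adjusted p = 3.73e-08). TLR4-T399I was 2.09-fold below TLR4-WT (adjusted p = 0.000224). TLR4-D299G did not pass against untransfected cells (log2 change -0.11, 95% interval -0.36 to 0.15, adjusted p = 0.498). The genes most like SERPINA6 over the 12 arrays were ARMCX3 (r = 0.991), SH3BGRL (0.9889) and APOB (0.9875), the protein of chylomicrons and low-density lipoprotein.

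SERPINA6 lies in a cluster of serpin genes on chromosome 14, and several other serpin genes there fell in the same lines. Serpins outside the cluster fell too, as given below, and a part of position was not tested. Of the 9 other measured SERPINA genes of the cluster, 0 were higher and 6 lower in TLR4-WT, and 0 and 6 in TLR4-T399I, against untransfected cells. In TLR4-D299G 4 were higher and 1 lower. Of all genes, 38.3%, 43.3% and 36.6% were called in TLR4-WT, TLR4-D299G and TLR4-T399I. Near SERPINA6, PPP4R4, which is no serpin, fell in these lines (log2 changes -0.23, -0.37 and -0.82). IFI27L2 rose in TLR4-D299G (0.43) and TLR4-T399I (0.27). Against both TLR4-WT and TLR4-T399I, 6 were higher in TLR4-D299G and 0 lower. SERPINA10, which inhibits factor Xa and is the next gene on one side, fell 1.55-fold in TLR4-WT (adjusted p = 0.000245) and 1.46-fold in TLR4-T399I (adjusted p = 0.000621). SERPINA2, the next gene on the other side, lay between 5.30 and 5.50 as group means and passed in none of the 6 comparisons. SERPINA4 (kallistatin) was at 8.59 ± 0.19 in untransfected cells, 7.09 ± 0.14 in TLR4-WT, 9.86 ± 0.08 in TLR4-D299G and 7.66 ± 0.12 in TLR4-T399I. SERPINA3 (alpha-1-antichymotrypsin), singled out after its values were seen, rose 1.97-fold in TLR4-D299G (adjusted p = 1.63e-05) and fell 2.23-fold in TLR4-T399I (adjusted p = 5.65e-06).

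**Figure D3:**
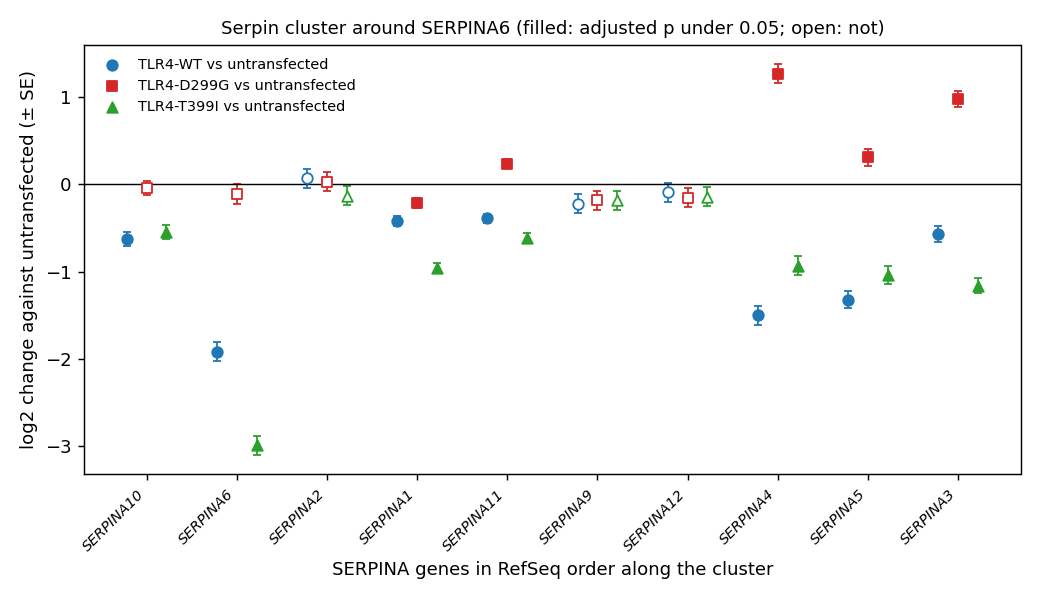
Log2 change against untransfected cells (vertical axis, ± SE) of 10 SERPINA genes in their RefSeq order along chromosome 14 (horizontal axis, not to distance); circles are TLR4-WT, squares TLR4-D299G and triangles TLR4-T399I, filled where the adjusted p was under 0.05. SERPINA6 has the lowest points, -1.92 and -2.99, while SERPINA2, SERPINA9 and SERPINA12 have open symbols throughout.

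The promoters shown are those of the 4 genes whose windows held a match to a motif named below. SERPINA6 and AHSG were called among the groups and SPINK1 and ITIH4 were not. Chosen by their matches, they form no comparison of called genes with others. RefSeq's promoter table (GRCh38.p14) held 7 of the 9 genes, without A2M and ITIH2. The 250 bases before each start are printed 5′ to 3′, with capitals for motif matches on either strand. The motifs were TTCNNNGAA (the STAT site) and TTGCNNAA (C/EBP-like). The TATA box (TATAAA) was also searched.
SERPINA6, chr14:94323337-94323586, minus strand: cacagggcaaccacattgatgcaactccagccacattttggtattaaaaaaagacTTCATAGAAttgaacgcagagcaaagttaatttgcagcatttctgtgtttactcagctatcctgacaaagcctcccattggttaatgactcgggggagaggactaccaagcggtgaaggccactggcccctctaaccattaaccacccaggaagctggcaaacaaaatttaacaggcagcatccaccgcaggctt
AHSG, chr3:186612810-186613059, plus strand: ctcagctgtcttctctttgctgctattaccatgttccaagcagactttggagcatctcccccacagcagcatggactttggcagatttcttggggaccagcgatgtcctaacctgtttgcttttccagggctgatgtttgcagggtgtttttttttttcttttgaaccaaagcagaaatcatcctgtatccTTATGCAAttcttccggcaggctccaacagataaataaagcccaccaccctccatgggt
SPINK1, chr5:147831672-147831921, minus strand: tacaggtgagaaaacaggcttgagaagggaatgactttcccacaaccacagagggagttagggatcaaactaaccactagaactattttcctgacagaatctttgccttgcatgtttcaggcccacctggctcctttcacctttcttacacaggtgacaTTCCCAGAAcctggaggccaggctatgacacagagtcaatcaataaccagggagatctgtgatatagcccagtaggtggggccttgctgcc
ITIH4, chr3:52830673-52830922, minus strand: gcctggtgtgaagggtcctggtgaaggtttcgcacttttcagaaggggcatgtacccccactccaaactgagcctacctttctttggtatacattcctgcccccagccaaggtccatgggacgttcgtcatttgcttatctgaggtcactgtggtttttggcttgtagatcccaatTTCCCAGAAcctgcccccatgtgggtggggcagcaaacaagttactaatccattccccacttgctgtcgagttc
SERPINA6 had 1 STAT match, TTCATAGAA, which began 195 bases before the start. SPINK1 and ITIH4 had the STAT match TTCCCAGAA, identical in both, which began 91 and 74 bases before their starts. A STAT match was in 6.57% of the 35116 promoter windows of this length. AHSG had 1 C/EBP-like match, which began 59 bases before the start (9.05% of windows), and the TATA box, found in 10.7% of windows, was in none of the 4. The windows of AMBP, ITIH1 and ITIH3 in the table held no match to any of the 3 motifs. A match describes letters only, and binding was not measured.

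Plasma serpins outside the 9 genes fell in TLR4-WT and TLR4-T399I, as SERPINA6 did. Of the 11 measured, 5 (SERPINA1, SERPINA3, SERPINA4, SERPINA5 and SERPINA10) belong to the cluster described above. All 11 were lower in TLR4-WT and all 11 in TLR4-T399I against untransfected cells, where the median changes were -1.27 and -1.16. TLR4-D299G was divided, with 5 higher and 5 lower and a median change of -0.04. All 11 were higher in TLR4-D299G than in TLR4-WT (median change 1.35) and than in TLR4-T399I (median change 1.68), against a median of -0.02 and 0 over all probe sets. SERPIND1 (heparin cofactor II) was at 9.70 ± 0.14 in untransfected cells, 8.43 ± 0.08 in TLR4-WT, 10.08 ± 0.09 in TLR4-D299G and 7.07 ± 0.23 in TLR4-T399I. SERPINA7, the thyroxine carrier on the X chromosome, fell in all 3 lines, by 4.99-fold, 2.68-fold and 8.59-fold in the order TLR4-WT, TLR4-D299G and TLR4-T399I, to 5.17 ± 0.34 in the last, which is under the arrays' lower quartile. SERPINF1 (pigment epithelium-derived factor) likewise fell by factors of 5.27, 2.07 and 6.73. Earlier results had already shown a fall of liver secretory genes in TLR4-WT and TLR4-T399I, so these counts are no independent support for one.

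**Figure D4:**
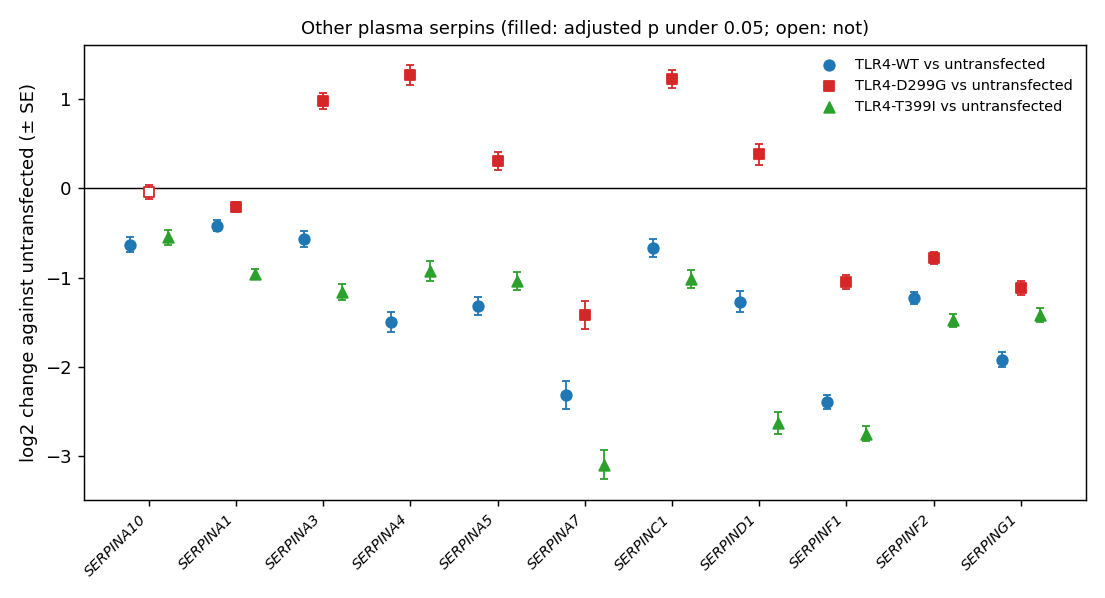
Log2 change against untransfected cells (vertical axis, ± SE) of the 11 other plasma serpins measured; circles are TLR4-WT, squares TLR4-D299G and triangles TLR4-T399I, filled where the adjusted p was under 0.05. All circles and triangles lie below 0, while squares lie on both sides of it.

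Serpins that act inside cells or in tissue, 10 of them measured, were higher in 5 and lower in 2 cases in TLR4-WT, 3 and 2 in TLR4-D299G, and 4 and 1 in TLR4-T399I. SERPINE2 (protease nexin-1) rose in every line, from 5.37 ± 0.30 in untransfected cells to 6.71 ± 0.05, 7.58 ± 0.07 and 7.06 ± 0.13. SERPINI1 (neuroserpin) fell by factors of 2.67, 2.12 and 1.35 in TLR4-WT, TLR4-D299G and TLR4-T399I, the last with an adjusted p of 0.0486. SERPINB9, which blocks granzyme B, rose 1.79-fold in TLR4-WT (adjusted p = 9.51e-06) and did not pass in TLR4-D299G (adjusted p = 0.429).

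AHSG (fetuin-A), which binds calcium phosphate and keeps it from precipitating, fell in TLR4-T399I and slightly in TLR4-WT. Its arrays read 12.93, 12.91 and 12.88 in untransfected cells and 13, 12.92 and 12.97 in TLR4-D299G. They read 12.52, 12.46 and 12.47 in TLR4-WT and 11.12, 11.23 and 11.2 in TLR4-T399I. The arrays of TLR4-D299G overlapped those of untransfected cells, and the other 2 groups lay lower and apart. AHSG fell 3.3-fold in TLR4-T399I (log2 change -1.72, SE 0.06, adjusted p = 1.85e-08) and 1.34-fold in TLR4-WT (log2 change -0.42, SE 0.06, adjusted p = 0.000248). TLR4-T399I was 2.46-fold below TLR4-WT (adjusted p = 4.48e-07). The genes most like AHSG were HSD3B1 (r = 0.9888), AFP (0.9884) and OGT (0.9798). AFP, the fetal counterpart of albumin, was at 13.20 ± 0.03, 12.77 ± 0.08, 13.05 ± 0.05 and 11.20 ± 0.21 in untransfected cells, TLR4-WT, TLR4-D299G and TLR4-T399I.

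AHSG has its 3 relatives FETUB, HRG and KNG1 next to it on chromosome 3. Of these, 0 were higher and 1 lower in TLR4-WT, 1 and 1 in TLR4-D299G, and 0 and 2 in TLR4-T399I against untransfected cells. In TLR4-D299G only 1 was called without TLR4-D299G replicate 1 or 2 or untransfected replicate 2 or 3, and in TLR4-T399I without TLR4-T399I replicate 1 or 3 or untransfected replicate 1 or 3. All 3, like AHSG, were higher in TLR4-D299G than in TLR4-T399I, with 1 still called without TLR4-D299G replicate 1. KNG1 (kininogen, the source of bradykinin and an inhibitor of cysteine proteases) fell in every line, from 10.98 ± 0.09 to 8.78 ± 0.02, 9.40 ± 0.06 and 8.21 ± 0.16. In TLR4-D299G KNG1 fell 2.99-fold (adjusted p = 3.67e-07), and AHSG had a log2 change of 0.06 (95% interval -0.07 to 0.18, adjusted p = 0.466). FETUB (fetuin-B) lay between 5.31 and 5.78 as group means and fell 1.29-fold in TLR4-T399I (adjusted p = 0.0233). HRG (histidine-rich glycoprotein) was between 4.56 and 5.05, under the arrays' lower quartile. DNAJB11, an endoplasmic reticulum chaperone and the next measured gene on the other side, passed in none of the 6 comparisons.

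AMBP and ITIH2, which encode a light and a heavy chain of inter-alpha-inhibitor, had their lowest values in TLR4-WT and TLR4-T399I. AMBP read 8.74, 8.77 and 8.58 in untransfected cells, 7.01, 6.97 and 7.04 in TLR4-WT, 8.46, 8.11 and 8.31 in TLR4-D299G, and 7.42, 7.3 and 6.91 in TLR4-T399I. TLR4-WT and TLR4-T399I overlapped each other, and both lay below TLR4-D299G, which lay below untransfected cells. The fall of AMBP was 3.23-fold in TLR4-WT (log2 change -1.69, SE 0.13, adjusted p = 4.21e-06) and 2.8-fold in TLR4-T399I (log2 change -1.49, SE 0.13, adjusted p = 1.02e-05). The difference between those lines did not pass (log2 change 0.20, 95% interval -0.08 to 0.49, adjusted p = 0.413). In TLR4-D299G AMBP fell 1.32-fold (adjusted p = 0.0306), and this call was lost without TLR4-D299G replicate 2 (adjusted p = 0.116) or 3 (0.0678) or untransfected replicate 1 (0.0789) or 2 (0.0922), in a range of 0.00894 to 0.116 over 19 alternatives.

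ITIH2 read 11.66, 11.7 and 11.54 in untransfected cells, 9.33, 9.3 and 9.19 in TLR4-WT, 12.07, 12.03 and 12.05 in TLR4-D299G, and 8.91, 9.31 and 9.13 in TLR4-T399I. As with AMBP, TLR4-WT and TLR4-T399I overlapped at the bottom. TLR4-D299G differed from the AMBP pattern in lying above untransfected cells, by 1.33-fold (log2 change 0.42, SE 0.09, adjusted p = 0.00582). As a description, TLR4-WT stood 5.13-fold below untransfected cells and 6.85-fold below TLR4-D299G. In TLR4-T399I it fell 5.72-fold against untransfected cells (log2 change -2.52, SE 0.09, adjusted p = 3.61e-08). TLR4-T399I and TLR4-WT did not differ beyond their spread (log2 change -0.16, 95% interval -0.36 to 0.05, adjusted p = 0.388).

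Over the 12 arrays AMBP and ITIH2 correlated at r = 0.92, ITIH2 and SERPINA6 at 0.95, and AHSG and SERPINA6 at 0.92, values that mostly reflect the 4 group means. A2M correlated at 0.48 to 0.75 with AHSG, AMBP, ITIH2 and SERPINA6. The genes most like ITIH2 were GPR137B (r = 0.9928), ALB (0.9925) and IYD (0.9899). Albumin (ALB) was at 13.21 ± 0.06, 10.31 ± 0.14, 13.25 ± 0.04 and 9.89 ± 0.33 in untransfected cells, TLR4-WT, TLR4-D299G and TLR4-T399I. Those most like AMBP were SLC15A2 (r = 0.984), the bile acid importer SLC10A1 (0.9832) and TCAF1 (0.9808).

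The other heavy chain genes stayed near one level. ITIH1 ranged from 6.13 to 6.5 over the 12 arrays, ITIH3 from 6 to 6.51 and ITIH4 from 6.38 to 7.05. None of them passed in any of the 6 comparisons, whereas ITIH2 was called in TLR4-T399I against untransfected cells. For ITIH1 the 95% intervals of the 6 differences, not adjusted for the number of tests, lay between -0.33 and 0.31. For ITIH3, which differed most, the interval between TLR4-D299G and TLR4-T399I was 0.10 to 0.52 (adjusted p = 0.0585), and without the dim probe sets this difference passed (adjusted p = 0.0397). ITIH4, which binds no bikunin, had an interval of 0.02 to 0.59 in TLR4-D299G against untransfected cells (adjusted p = 0.0892), and it passed without untransfected replicate 3 (0.0388). All 3 genes lay above the arrays' lower quartile and close to or below their median (6.88 to 6.97). No detection calls were used here, so whether these genes were expressed was not settled.

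ITIH1, ITIH3 and ITIH4 are neighbours on chromosome 3, while ITIH2 is on chromosome 10. Of the 6 other measured genes nearest to the 3, 4 were lower and 0 higher in TLR4-D299G against untransfected cells, where 43.3% of all genes were called. SFMBT1, next to ITIH4, fell 1.96-fold there (adjusted p = 5.39e-06). NEK4, next to ITIH1, fell 1.47-fold (adjusted p = 0.00068). Beside ITIH2, the related gene ITIH5 lay between 6.16 and 6.42 as group means and passed in no comparison, and neither did KIN on the other side. Of the 6 genes nearest to AMBP, 1 was higher and 0 lower in TLR4-WT, and 0 and 1 in TLR4-T399I. ZNF618, on one side of AMBP, rose 1.3-fold in TLR4-WT (adjusted p = 0.015), and KIF12, on the other, fell 1.32-fold in TLR4-T399I (adjusted p = 0.00206).

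**Figure D5:**
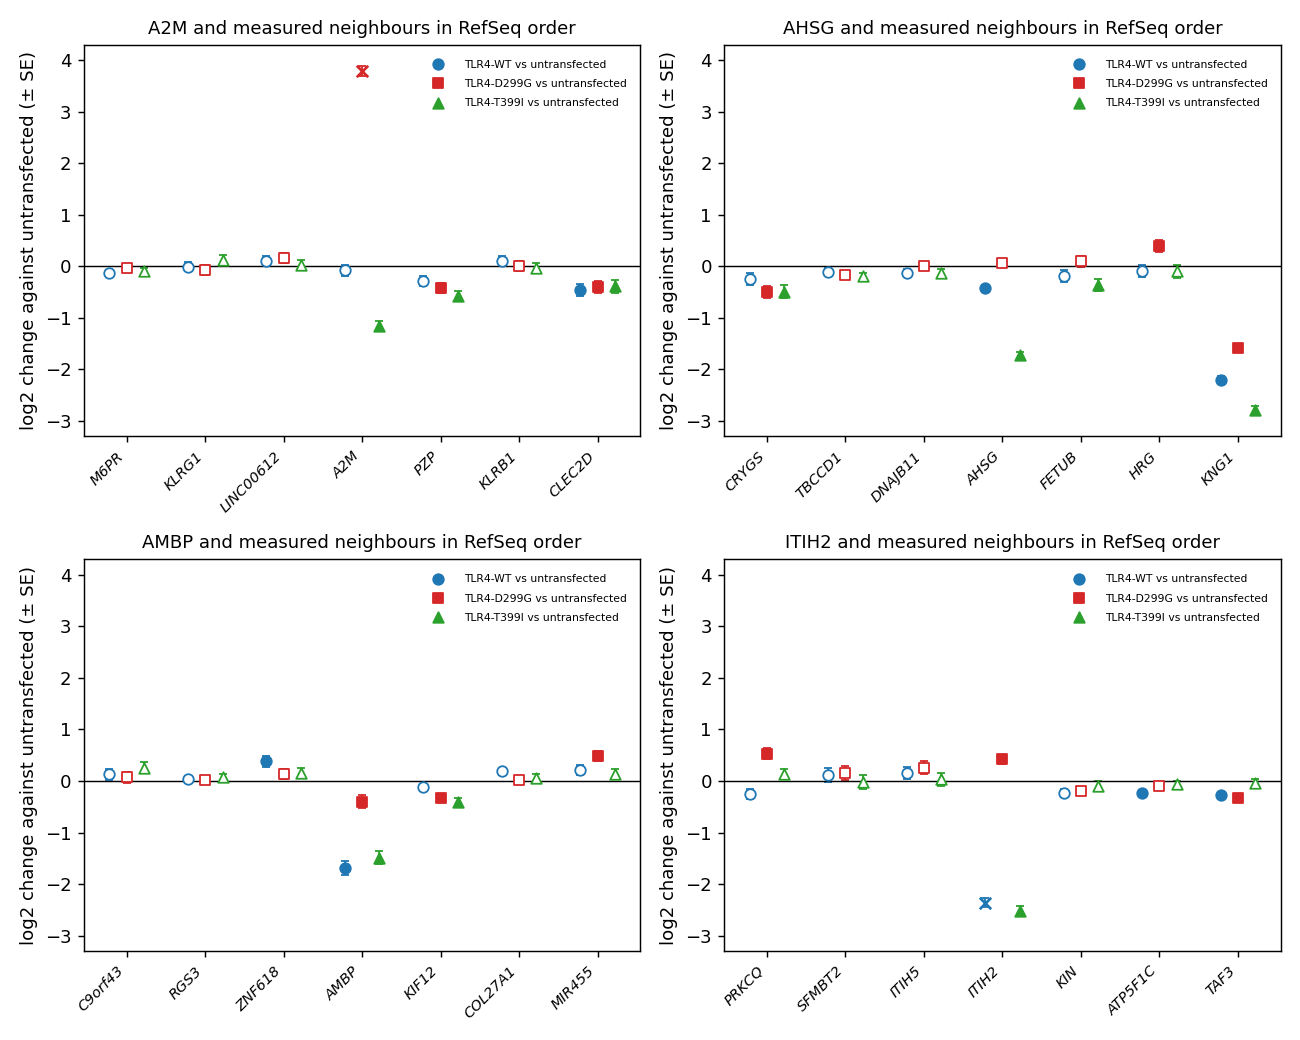
Log2 change against untransfected cells (vertical axis, ± SE) of A2M, AHSG, AMBP and ITIH2 and the 3 nearest measured genes on each side in RefSeq order (horizontal axis, not to distance); circles are TLR4-WT, squares TLR4-D299G and triangles TLR4-T399I, filled where the adjusted p was under 0.05, with crosses for values that carry no test. The genes beside A2M, AMBP and ITIH2 stay within 0.58 units of 0, while KNG1 beside AHSG falls to -2.78. The A2M circle and triangle and the ITIH2 square follow from values known beforehand.

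Of 12 measured genes that work with the heavy chains or on hyaluronan, 5 were higher and 1 lower in TLR4-WT, 2 and 1 in TLR4-D299G, and 4 and 0 in TLR4-T399I. The hyaluronan synthase HAS2 rose from 4.94 ± 0.22 in untransfected cells to 5.86 ± 0.11, 6.14 ± 0.05 and 5.80 ± 0.13 in TLR4-WT, TLR4-D299G and TLR4-T399I. Its level in untransfected cells lay under the arrays' lower quartile, where the background is not known. CD44, a hyaluronan receptor, rose by factors of 1.63, 1.8 and 1.79 in these lines. HMMR, a hyaluronan-binding spindle protein, rose 1.37-fold in TLR4-T399I (adjusted p = 0.00492). FURIN, a proprotein convertase, rose 1.33-fold in TLR4-WT (adjusted p = 0.00218) and 1.28-fold in TLR4-T399I (adjusted p = 0.00564).

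SPINK1, the Kazal-type inhibitor of trypsin, was lower in TLR4-T399I, by less than the other called genes. It read 11.36, 11.43 and 11.63 in untransfected cells, 11.15, 11.22 and 11.35 in TLR4-WT, 11.27, 11.28 and 11.4 in TLR4-D299G, and 11, 11.26 and 11.13 in TLR4-T399I. The arrays of TLR4-T399I lay below those of untransfected cells without overlap and overlapped those of TLR4-WT. SPINK1 fell 1.27-fold in TLR4-T399I (log2 change -0.34, SE 0.09, adjusted p = 0.0177). That call was lost when only the arrays compared were fitted (adjusted p = 0.0716) and without TLR4-T399I replicate 1 (0.0668) or untransfected replicate 3 (0.0566), in a range of 0.00568 to 0.0716 over 19 alternatives. In TLR4-WT it did not pass (adjusted p = 0.0813, 95% interval -0.44 to -0.03), but did with a trended, robust prior (0.0431). SCGB3A2, beside SPINK1 on chromosome 5, rose 1.27-fold, 1.36-fold and 1.33-fold in TLR4-WT, TLR4-D299G and TLR4-T399I, while JAKMIP2 on the other side fell 1.42-fold in TLR4-WT (adjusted p = 0.00592); SCGB3A2 in untransfected cells and JAKMIP2 in all groups lay under the arrays' lower quartile.

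Other small inhibitors of epithelium moved in differing ways. Of 11 measured Kunitz, Kazal and WAP inhibitors, 2 were higher and 2 lower in TLR4-WT, 5 and 4 in TLR4-D299G, and 5 and 0 in TLR4-T399I. TFPI, the Kunitz inhibitor of tissue factor, was at 7.37 ± 0.13 in untransfected cells, 7.25 ± 0.07 in TLR4-WT, 9.45 ± 0.03 in TLR4-D299G and 8.17 ± 0.20 in TLR4-T399I. It was thus highest in TLR4-D299G, as A2M was, but also rose in TLR4-T399I (1.74-fold, adjusted p = 0.000131), where A2M fell. The elastase inhibitors SLPI and PI3 were highest in TLR4-T399I. SLPI was at 10.02 ± 0.05, 8.48 ± 0.21, 9.45 ± 0.13 and 10.53 ± 0.15 in untransfected cells, TLR4-WT, TLR4-D299G and TLR4-T399I, and PI3 at 10.21 ± 0.12, 9.50 ± 0.14, 9.18 ± 0.05 and 10.63 ± 0.16. RECK, a membrane-anchored inhibitor of metalloproteinases, rose 1.62-fold in TLR4-D299G (adjusted p = 0.000125).

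Among 12 measured serine proteases, 2 were higher and 1 lower in TLR4-WT, 6 and 1 in TLR4-D299G, and 1 and 3 in TLR4-T399I. Without TLR4-WT replicate 2 or untransfected replicate 2 the calls in TLR4-WT went from 3 to 1, and without TLR4-D299G replicate 1 or 3 those in TLR4-D299G went from 7 to 4. Prothrombin (F2) rose 1.42-fold in TLR4-D299G (adjusted p = 0.00313) and fell 2.04-fold in TLR4-T399I (adjusted p = 3.12e-05). PLG (plasminogen), which lay at 4.98 ± 0.31 in untransfected cells, under the arrays' lower quartile, reached 6.19 ± 0.21 in TLR4-D299G. TMPRSS4, a membrane protease of epithelium, rose 1.66-fold, 1.57-fold and 2.1-fold in TLR4-WT, TLR4-D299G and TLR4-T399I. PRSS1 (trypsinogen, the target of SPINK1) fell 1.34-fold in TLR4-WT (adjusted p = 0.0142) and 1.57-fold in TLR4-T399I (adjusted p = 0.0011), but its near-identical paralogs could share its probes, so the gene behind the signal is uncertain.

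Genes that handle cortisol, the ligand of SERPINA6, followed other patterns. The glucocorticoid receptor NR3C1 was at 9.10 ± 0.08 in untransfected cells and fell to 7.85 ± 0.17, 7.68 ± 0.03 and 7.23 ± 0.09 in TLR4-WT, TLR4-D299G and TLR4-T399I. HSD11B2, which inactivates cortisol, rose 1.34-fold, 1.34-fold and 1.29-fold. SGK1 fell 1.34-fold in TLR4-T399I (adjusted p = 0.000883) and 1.15-fold in TLR4-D299G (adjusted p = 0.0421). DUSP1 rose 1.32-fold in both mutants (adjusted p = 0.00029 in TLR4-D299G and 0.000364 in TLR4-T399I) and 1.14-fold in TLR4-WT (adjusted p = 0.027). SGK1 and DUSP1 are known glucocorticoid targets. Of the 7 genes measured, 2 were higher and 1 lower in TLR4-WT, 2 and 2 in TLR4-D299G, and 2 and 3 in TLR4-T399I, where 3 rather than 5 were called without TLR4-T399I replicate 3.

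Of 18 measured regulators of liver and gut genes, 5 were higher and 5 lower in TLR4-WT, 4 and 7 in TLR4-D299G, and 2 and 8 in TLR4-T399I. HNF4G, an intestinal nuclear receptor, fell 2.97-fold in TLR4-D299G (adjusted p = 4.71e-07) and 1.8-fold in TLR4-WT (adjusted p = 3.87e-05), and did not pass in TLR4-T399I (adjusted p = 0.555). NR5A2 fell 1.79-fold, 1.94-fold and 1.96-fold in TLR4-WT, TLR4-D299G and TLR4-T399I. CDX2, which sets intestinal identity, fell 1.81-fold in TLR4-D299G (adjusted p = 2.34e-06). The interleukin-6 receptor IL6R fell by factors of 1.86, 1.5 and 1.75.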

How the data were processed

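Gene expression was measured on 12 Affymetrix whole-transcript arrays, 3 for each of 4 groups. The authors made the values in Expression Console 1.0 (Affymetrix) by RMA, per the submitters' processing notes, which removes background, sets all arrays to 1 distribution and combines the probes of a set. The deposited values are log2 expression for 33297 probe sets, used as given, with 0 missing values and no filter. Array medians ran from 6.88 to 6.97, and precision is limited by how few arrays there are. The platform's annotation named 1 gene for 19460 probe sets, more for 1754 and no gene for 12083, and the probe set with the highest mean stood for its gene. Of 18417 genes, 18392 matched RefSeq (GRCh38.p14), used for gene order and promoters only, since the array's build is not given in the sources used here.

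A model of group means was fitted with limma 3.58.1 in R 4.3.3 (8 residual degrees of freedom, empirical Bayes), and each of 6 pairwise comparisons had its two-sided p-values adjusted over the whole array (Benjamini-Hochberg). The fit was tested on simulated data with known changes. No list was tested as a set. Alternatives were another prior, centred arrays, a filter on dim probe sets, the compared arrays alone, a replicate block, adjusted p under 0.01, a 2-fold minimum, the mean of all probe sets and each array left out. Up to 4 called genes with the largest change were named from each of 9 lists, with the next measured genes beside the 9 and the 3 genes most like each called one (5 for A2M). The 9 genes, lists and rules were chosen with earlier results of these data known. No 2 arrays were identical. A planned motif is not reported here.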

Additional observations from a re-analysis of the deposited data

Results flagged for a closer look

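The change against untransfected cells differed between lines, tested as the difference of the 2 lines in the limma fit, for AHSG, AMBP and SERPINA6. It also did for ITIH2 between the mutants. The A2M values and the other ITIH2 value given here were known beforehand or follow from known values, and carry no test. Between TLR4-D299G and TLR4-WT the differences on the log2 scale were 3.86 for A2M, 0.48 for AHSG, 1.29 for AMBP, 2.78 for ITIH2 and 1.81 for SERPINA6. Between TLR4-T399I and TLR4-WT they were -1.08 for A2M, -1.3 for AHSG and -1.07 for SERPINA6. Between TLR4-D299G and TLR4-T399I they were 4.94 for A2M, 1.78 for AHSG, 1.08 for AMBP, 2.93 for ITIH2 and 2.88 for SERPINA6.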

How the results depend on the processing

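The 54 changes of single genes were refitted under 19 alternatives, 1026 refits in all, the values without a test included. In 9 refits a call was lost and in 8 one was gained, in AMBP, SPINK1, ITIH3 and ITIH4. No change called in the main fit or the refit switched sign. Some that passed in neither did, such as ITIH1 in TLR4-D299G against untransfected cells (log2 change -0.09 to 0.07). The number of the 9 genes called stayed within 1.5 times except in TLR4-D299G against untransfected cells with a 2-fold minimum (1 rather than 3, the values without a test included). At an adjusted p under 0.01, calls over all probe sets were 6157, 7172 and 6058 (from 10404, 11785 and 9806) for TLR4-WT, TLR4-D299G and TLR4-T399I against untransfected cells, and 3446, 1630 and 2580 (from 5618, 3456 and 4476) for TLR4-D299G and TLR4-T399I against TLR4-WT and for TLR4-D299G against TLR4-T399I. With a 2-fold minimum they were 659, 1009, 763, 439, 162 and 323 in the same order. With the compared arrays alone, 6508 were called in TLR4-T399I against untransfected cells and 1945 against TLR4-WT, where 5 rather than 8 plasma serpins were called. Leaving out 1 array gave 2119 to 3711 calls between TLR4-T399I and TLR4-WT, the low end without TLR4-WT replicate 1 or 2 or TLR4-T399I replicate 3. With the replicate block SPINK1 passed in TLR4-WT (adjusted p = 0.0387) and ITIH4 in TLR4-D299G (0.0443) against untransfected cells. Of 54 list counts, 20 moved down by over 1.5 times at 0.01 and 48 with a 2-fold minimum, and 3, 7 and 3 moved with centred arrays, compared arrays alone and the filter on dim probe sets, and 1 to 8 with 1 array left out, among them serine proteases, fetuins and glucocorticoid genes. The labels do not say whether a replicate number marks a shared day or batch, and the main fit did not use it. Same-numbered arrays of different groups correlated in their deviations at -0.08 to 0.27, over 0.1 in 5 of 18 pairs. Differently numbered arrays correlated at -0.27 to 0.21, and 9 of 12 arrays correlated best with their own number. A shared effect of the replicate number was not tested. With the replicate block 11019, 12335, 10173, 5733, 3465 and 4632 probe sets were called in the same order of comparisons. Of the 9 genes 5, 4, 6, 5, 3 and 5 were called, the values without a test included. The number of arrays and the unknown background limit dim genes.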
